A study of Mus musculus with 6 samples.

Results

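The genes described here are 8 rows of the 55416-gene expression table, taken by symbol: the sine oculis homeobox factors *Six2*, *Six4* and *Six5*, the Eya coactivators *Eya1*, *Eya2*, *Eya3* and *Eya4*, and the corepressor *Dach1*. Each symbol stood on a single row. RNA was sequenced from muscle satellite cells (SCs), the stem cells of skeletal muscle, after 4 days in growth medium with no further treatment, in 3 libraries from WT mice and 3 libraries from *Ltf*-KO mice. *Ltf* encodes lactoferrin, and the *Ltf*-KO animals carry a CRISPR-Cas9 deletion of several exons, made in C57/BL6N zygotes, so that the SCs and all the tissue around them carried it before the cells were taken. The rest of the gene stays in place and could still be transcribed. SCs were sorted from hind leg muscle, by the study's account as cells negative for Sca1 and CD11b and positive for CD34 and α7-integrin. The stains it lists are for Sca1, α7-integrin, the endothelial protein CD31 and the leukocyte protein CD45, and not for CD11b or CD34. The sorted cells were then plated on Matrigel in a medium with serum and basic fibroblast growth factor, which both genotypes received. The sources used here do not say whether the 3 libraries of a genotype came from separate animals, so p-values measure only the spread between these libraries, which may be technical.

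Sine oculis homeobox proteins bind DNA through a homeodomain, and in muscle they recognise the MEF3 site of genes such as *Myog*, the transcription factor that drives myoblast differentiation. Eya proteins do not bind DNA themselves. They join a homeobox partner on its site and turn it into an activator, and they also carry a tyrosine phosphatase activity. Dach proteins, relatives of the Ski corepressor, join the same complexes and favour repression. In the myogenic lineage these factors act beside Pax3 and Pax7, upstream of *Myf5*, *Myod1*, *Myog* and the genes of fast muscle fibres.

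Levels are given in TPM, for which reads are divided by gene length and every library is scaled to the same total, so that levels can be set between genes while the reads behind each value remain unknown. The 6 libraries summed to between 993650 and 994356 TPM and held 12828 to 12951 genes at 1 TPM or more. The targeted gene *Ltf* had 0.12, 0.02 and 0.02 TPM in WT and 0.02, 0.03 and 0 TPM in *Ltf*-KO, near the floor in both, which leaves the genotype labels unchecked by its level. The 10 SC and myoblast markers summed to 2072 to 2108 TPM in WT and 2091 to 2139 TPM in *Ltf*-KO libraries, with *Myod1* at 748 to 816 TPM and *Des* at 446 to 511 TPM over the 6 libraries. All 10 were tested and 0 called, beside 0% of all genes tested (median log2 fold change 0.012). Among leukocyte markers the defining gene *Ptprc* lay at 0 to 0.16 TPM. The libraries thus carried the markers of the labelled cell type, and the other cell types are given beside the members they moved with.

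*Eya3* and *Eya4* were the most abundant of the 8 transcripts, and the levels fell into 3 tiers. *Eya3*, an Eya phosphatase known from the DNA damage response, had a mean of 21.1 TPM over the 6 libraries, above 79.1% of the 26553 genes with any TPM. *Eya4*, known from inherited hearing loss and cardiomyopathy, followed at 17.4 TPM. *Eya3* exceeded *Eya4* in 6 of 6 libraries by 1.13-fold to 1.30-fold, although their ranges over the libraries overlapped. Next came *Six4* at 10.6 TPM, *Eya1* at 10.02 TPM and *Six2* at 9.75 TPM, which could not be ordered, since their ranges overlapped and *Eya1* lay above *Six2* in 3 libraries and below it in the other 3. *Eya4* stood clear of this second tier, at 1.51 to 1.78 times the *Six4* level in each library.

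*Six5*, *Eya2* and *Dach1* formed the third tier at means of 1.05, 0.97 and 0.953 TPM, with ranges that overlapped. *Six2* lay 6.84-fold to 13.9-fold above *Six5*, with no overlap. These 3 genes were close to the median of all genes with any TPM, above 51.6%, 50.9% and 50.8% of them. Further genes of these families were listed lower still: *Six3* at 0 to 0.15 TPM, *Six6* at 0 to 0.06 TPM and *Dach2* at 0 to 0.06 TPM.

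**Figure D1:**
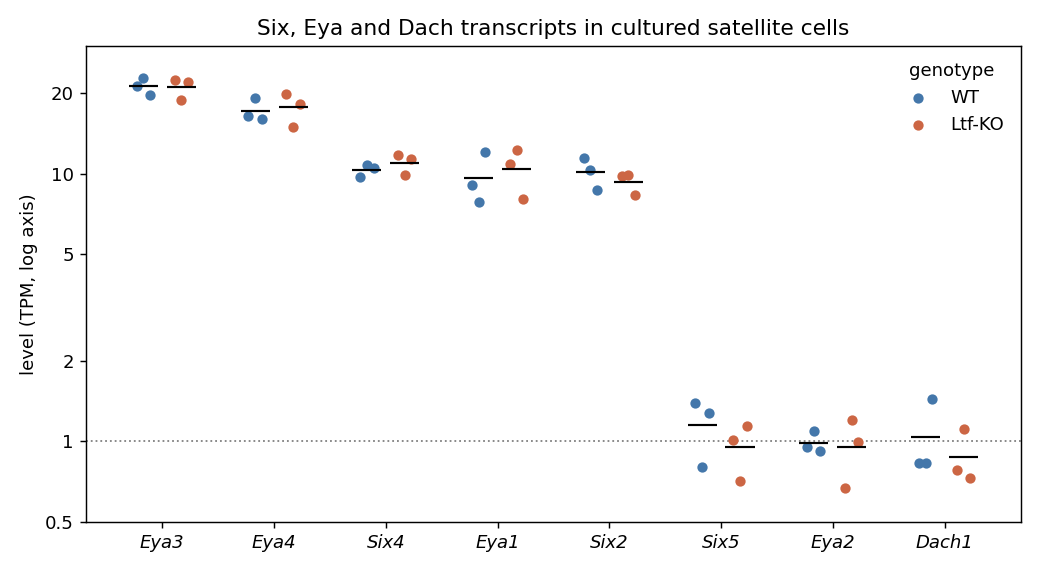
TPM (log axis) of the 8 genes, ordered by mean, in 3 WT and 3 Ltf-KO libraries: each point is a library, each black bar the mean of a genotype, and the dotted line marks 1 TPM. The points of both genotypes overlap for all 8 genes, and the 3 lowest genes lie around 1 TPM while *Eya3* lies near 20 TPM.

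RefSeq promoter windows (build GRCm38.p6, from 250 bases before to 50 bases after a start site) were at hand for 6 of the 8 genes. *Six4* and *Eya4* had 2 windows each, at different start sites. The 3 windows printed are that of *Eya3* and the first listed for *Six4* and for *Eya4*. Over the libraries *Eya4* varied with *Eya3* and with *Six4*, as described further on. Capitals mark a GC box (GGGCGG, or CCGCCC on the opposite strand) and, in *Six4*, the core letters of the MEF3 site (TCAGGTT, here on the opposite strand as AACCTGA).
Six4, chr12:73113196-73113495, minus strand: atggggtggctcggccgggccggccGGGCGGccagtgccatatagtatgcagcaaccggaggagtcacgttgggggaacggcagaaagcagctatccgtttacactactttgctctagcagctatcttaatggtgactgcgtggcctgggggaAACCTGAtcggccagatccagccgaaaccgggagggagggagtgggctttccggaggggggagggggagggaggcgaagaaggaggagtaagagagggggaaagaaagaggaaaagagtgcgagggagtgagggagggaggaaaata
Eya3, chr4:132638796-132639095, plus strand: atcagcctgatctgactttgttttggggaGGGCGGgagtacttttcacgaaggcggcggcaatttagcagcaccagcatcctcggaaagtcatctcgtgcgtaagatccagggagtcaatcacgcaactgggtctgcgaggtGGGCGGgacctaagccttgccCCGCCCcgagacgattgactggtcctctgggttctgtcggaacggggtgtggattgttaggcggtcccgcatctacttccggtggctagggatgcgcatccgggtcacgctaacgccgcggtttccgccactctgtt
Eya4, chr10:23349894-23350193, minus strand: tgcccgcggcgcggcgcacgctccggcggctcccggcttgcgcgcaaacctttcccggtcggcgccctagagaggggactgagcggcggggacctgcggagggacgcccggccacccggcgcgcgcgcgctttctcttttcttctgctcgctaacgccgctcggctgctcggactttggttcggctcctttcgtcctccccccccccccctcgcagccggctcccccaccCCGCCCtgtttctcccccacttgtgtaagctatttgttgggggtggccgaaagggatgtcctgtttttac

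The printed *Six4* window was the only 1 of the 8 windows of these genes with the MEF3 core letters, whose first base lay at -97 from its start site. The other *Six4* window lacked them. Of the 32851 mouse promoter windows, 4.07% hold those letters on either strand. None of the 8 windows held the E-box letters CAGCTG (16.3% of promoters) or TATAAA (13.6%). GC boxes, found in 35.7% of promoters, stood once in the *Six4* and *Eya4* windows and 3 times each in those of *Eya3*, *Six2* and *Six5*. CpG dinucleotides numbered 16 in the printed *Six4* window (15 in the other), 25 in *Eya3* and 36 in the printed *Eya4* window (28 in the other). The median over all promoters was 7. The *Dach1* window held 13 CpG and none of the motifs searched, which also included CCAAT (37.4% of promoters, all motifs searched on both strands). Such letters describe the windows and show no binding.

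Among the homeobox factors, *Six2*, best known for holding kidney progenitors undifferentiated, had 11.5, 10.3 and 8.69 TPM in WT and 9.83, 9.88 and 8.31 TPM in *Ltf*-KO libraries. The highest library was WT and the lowest *Ltf*-KO, but the genotypes overlapped. Its means were 10.2 ± 1.39 TPM in WT and 9.34 ± 0.892 TPM in *Ltf*-KO (SD, n = 3 each), a log2 fold change of -0.11 ± 0.115 (SE) on the log2(TPM + 1) scale (limma, adjusted p = 0.999). In a bulk culture, fewer cells that express a gene and less RNA per cell cannot be told apart.

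*Six4*, a homeobox factor of developing and regenerating muscle, lay at 9.67, 10.7 and 10.5 TPM in WT and 11.8, 9.92 and 11.3 TPM in *Ltf*-KO libraries. It was the steadiest of the homeobox factors, with its highest library 1.22 times its lowest, and both highest libraries were *Ltf*-KO. The log2 fold change was 0.084 ± 0.0814 (SE; limma, adjusted p = 0.999). *Six5*, the neighbour of the myotonic dystrophy gene *Dmpk*, had 1.39, 0.8 and 1.27 TPM in WT and 1.01, 0.71 and 1.14 TPM in *Ltf*-KO libraries. Its genotypes overlapped too, with replicate 2 lowest in each, and its log2 fold change of -0.14 ± 0.190 (SE; limma, adjusted p = 0.999) was the largest in size among the members tested. *Dmpk* itself was at 509.9 ± 5.18 TPM in WT and 512.9 ± 6.01 TPM in *Ltf*-KO libraries (SD, n = 3), so these adjacent genes differed widely in level.

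Of the Eya coactivators, *Eya1*, the gene of branchio-oto-renal syndrome, had a wide spread for a gene of its level. It had 9.03, 7.85 and 12.1 TPM in WT and 10.8, 12.3 and 8.05 TPM in *Ltf*-KO libraries. Each genotype thus held 1 library near 8 TPM and 1 near 12 TPM, and the means of 9.65 ± 2.18 and 10.4 ± 2.14 TPM (SD, n = 3) differed by less than this spread. The log2 fold change was 0.097 ± 0.190 (SE; limma, adjusted p = 0.999). Within genotypes *Eya1* had an SD of 0.285 on the log2 scale, larger than that of 90.1% of the 4138 genes with a mean level within 2-fold of its own.

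*Eya3* had 21.2, 22.8 and 19.7 TPM in WT and 22.4, 18.8 and 21.9 TPM in *Ltf*-KO libraries. Its highest library was 1.21 times its lowest, and its means had the ratio closest to 1 of all members, at 21.2 ± 1.53 and 21.04 ± 1.96 TPM (SD, n = 3). *Eya4* had 16.4, 19.1 and 16.0 TPM in WT and 19.9, 14.9 and 18.2 TPM in *Ltf*-KO libraries. For *Eya4* both the highest and the lowest library were *Ltf*-KO, with the WT libraries between them. The log2 fold changes were -0.015 ± 0.0861 for *Eya3* and 0.036 ± 0.117 for *Eya4* (SE; limma, adjusted p = 0.999 for both).

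*Eya2* and *Dach1* had means under 1 TPM over the 6 libraries and did not enter the limma comparison. *Eya2* had 0.95, 1.09 and 0.92 TPM in WT and 0.67, 1.2 and 0.99 TPM in *Ltf*-KO libraries, and *Ltf*-KO held both extremes (two-sided exact permutation p = 1). *Dach1* had 0.83, 0.83 and 1.44 TPM in WT and 0.78, 1.11 and 0.73 TPM in *Ltf*-KO libraries. WT replicate 3 stood highest, the other 2 WT libraries lay among the *Ltf*-KO libraries, and the difference was within the spread of the libraries (two-sided exact permutation p = 0.5). With 3 libraries against 3, the smallest p this test allows is 0.1.

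Of the members, 6 of 8 passed the filter and were tested, and 0 of 6 had an adjusted p under 0.05, as did 0% of the 12956 genes tested. At an unadjusted p under 0.05 the members numbered 0 of 6, with 0.339 as their smallest p, against 3.78% of all genes tested. Libraries of the genotypes were separate for 0 of 8 members, against 8.46% of the genes tested. Of the 6, 3 were higher and 3 lower in *Ltf*-KO, with a median log2 fold change of 0.011, beside 0.011 for all genes tested. The 95% intervals of 5 of the 6 lay within a 1.5-fold change of TPM + 1 in either direction, from 0.858-fold to 1.14-fold for *Eya3*, the narrowest but for *Six4*, and from 0.779-fold to 1.47-fold for *Eya1*. For *Six5* the interval ran from 0.664-fold to 1.25-fold, and on this scale the change of a gene at 1 TPM is understated.

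**Figure D2:**
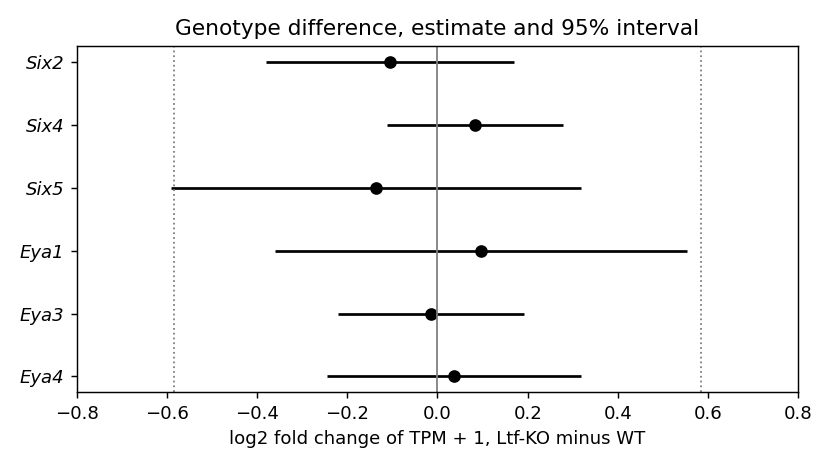
Log2 fold change of TPM + 1, *Ltf*-KO minus WT, for the 6 genes tested: points are limma estimates, bars their 95% intervals, and dotted lines mark a 1.5-fold change in either direction. Every interval crosses 0, and the interval of *Six5* alone passes a dotted line.

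The makeup of the Eya pool was less steady than its total. The 4 Eya transcripts summed to 47.2 to 53.8 TPM per library, at 49.04 ± 1.65 TPM in WT and 50.06 ± 3.37 TPM in *Ltf*-KO (SD, n = 3). *Eya3* made up 39.8% to 44.8% of this sum and *Eya4* 31.7% to 37.6%, while the *Eya1* share ran from 15.4% to 26.0% and that of *Eya2* from 1.25% to 2.54%. The ratio of *Eya4* to *Eya1* took the values 1.81, 2.43 and 1.32 in WT and 1.84, 1.22 and 2.27 in *Ltf*-KO libraries, so that each genotype spanned nearly the whole range. *Six2*, *Six4* and *Six5* together made 20.5 to 22.6 TPM, and the ratio of *Six2* to *Six4* ranged from 0.735 in *Ltf*-KO replicate 3 to 1.19 in WT replicate 1.

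Across the 6 libraries, *Eya3* and *Eya4* varied together. Pearson's r of log2(TPM + 1) was 0.938 and Spearman's rho 0.943, and r was 0.904 without the 2 libraries farthest from the median. *Ltf*-KO replicate 2 was the lowest library for both genes and WT replicate 3 the next. *Six4* moved with *Eya4* (r = 0.825, rho = 0.771, and 0.815 without the 2 farthest libraries). With *Eya3* its r was lower over the 6 libraries (r = 0.614, rho = 0.657) but similar, at 0.805, without the 2 farthest. *Eya1* went the other way from *Eya3* (r = -0.783, rho = -0.829), but without the 2 farthest libraries r was -0.084, so this relation rests on those libraries. The same held for *Eya1* with *Dach1*, whose r of 0.751 was -0.011 in the remaining 4 libraries. Of the 28 pairs of members 9 had a positive r and 19 a negative one. Every such value is over the same 6 libraries, whose values share 1 total per library, and is given as a description.

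*Myog* followed the order of *Eya3* at its low end. It had 319, 410 and 293 TPM in WT and 360, 266 and 508 TPM in *Ltf*-KO libraries, with *Ltf*-KO replicate 2, WT replicate 3 and WT replicate 1 lowest, in the same order as for *Eya3* and *Eya4*. The fast muscle myosin light chain *Mylpf* ranked the 6 libraries as *Myog* did. For *Myog*, r was 0.744 with *Eya4* and 0.649 with *Six4* (n = 6 libraries), and 0.835 and 0.942 without the 2 libraries farthest from the median of each member. With *Eya3* r was 0.796 but 0.374 in the remaining 4 libraries, so this relation rests on the 2 left out, and with *Eya1* it went from -0.834 to -0.584.

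**Figure D3:**
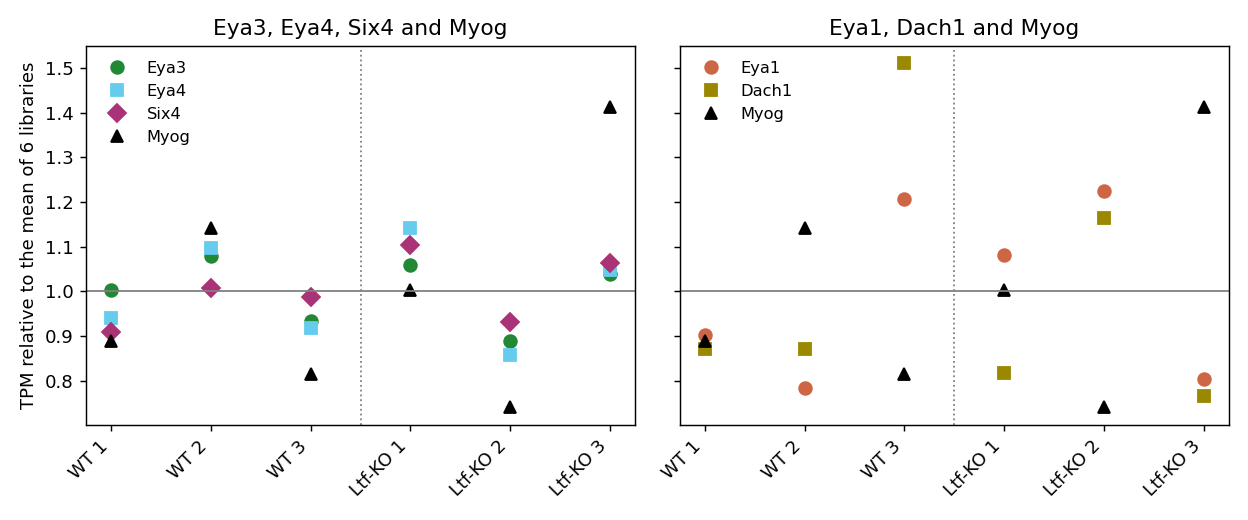
TPM of each gene divided by its mean over the 6 libraries, by library, with *Eya3*, *Eya4*, *Six4* and *Myog* on the left and *Eya1*, *Dach1* and *Myog* on the right. The dotted line parts WT from *Ltf*-KO libraries. In *Ltf*-KO replicate 2 and WT replicate 3 the genes on the left lie below 1 and *Eya1* and *Dach1* above it.

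The level of *Eya1* also moved with markers of other cell types, most closely with those of endothelial cells. The 7 endothelial markers together summed to 10.3, 7.54 and 18.7 TPM in WT and to 14.1, 15.7 and 7.60 TPM in *Ltf*-KO libraries, the order in which *Eya1* ranked them but for its top 2 libraries. Pearson's r between *Eya1* and this sum was 0.983 and Spearman's rho 0.943, with r = 0.996 without the 2 farthest libraries. This was 1 of 88 relations of the members with 11 other quantities, and it was chosen after all of them were seen. The leading endothelial markers were low, *Cdh5* at 1.79 to 4.97 TPM and *Emcn* at 0.82 to 4.52 TPM, and none of the 7 was at 0 in all libraries. With the fibroblast markers *Eya1* had r = 0.761 (0.894 without the 2 farthest libraries), with the Schwann cell markers 0.776 (0.256) and with the fast muscle gene *Tnnt3*, named after its values were seen, -0.944 (-0.875). The sort before culture selected against Sca1, a protein of endothelial cells and fibroblasts. The part of these cell types in the level of *Eya1* was not tested.

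*Six2* moved with the sum of the leukocyte markers, at 12.2 to 18.1 TPM in WT and 9.86 to 12.9 TPM in *Ltf*-KO libraries (r = 0.923, rho = 0.943, r = 0.686 without the 2 farthest libraries, n = 6). The defining leukocyte genes *Ptprc* and *Adgre1* were near 0, at up to 0.16 and 0.08 TPM. *Cd14* and *Cd68* had the highest means, but *Cd14* peaked in *Ltf*-KO replicate 2 (8.18 TPM) and *Cd68* in WT replicate 3 (3.98 TPM). *Lyz2*, named after its values were seen, had 7.22, 2.31 and 0.38 TPM in WT and 1.11, 0.95 and 0.38 TPM in *Ltf*-KO libraries. WT replicate 1, the highest library for *Six2*, thus led the sum mostly through *Lyz2* and not through *Cd14* or *Cd68*. The other markers of the list, all under 1 TPM on average, also peaked in WT replicate 1. They were *Csf1r* (0.39 TPM there), *Ptprc* (0.16 TPM), *Adgre1* (0.08 TPM) and *Itgam* (0.07 TPM). *Csf1r* and *Itgam* were named after their values were seen. The gate that the study states also excluded CD11b, a protein of myeloid leukocytes, though CD11b is not among the stains it lists. The part of leukocytes in the level of *Six2* was not tested. Fibroblast markers summed to 133 to 148 TPM in WT and 131 to 179 TPM in *Ltf*-KO, Schwann cell markers to 23.5 to 41.6 and 28.4 to 40.8 TPM, and smooth muscle and pericyte markers to 42.7 to 45.04 and 42.6 to 51.04 TPM. Of the genes in these lists, 7 of 9 fibroblast, 5 of 7 endothelial, 3 of 7 leukocyte, 6 of 6 Schwann cell and 3 of 6 smooth muscle and pericyte markers were tested. Their median log2 fold changes were, in that order, 0.31, 0.052, -0.11, 0.15 and 0.087. At an unadjusted p under 0.05 they numbered 0, against 3.78% of all genes tested.

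**Figure D4:**
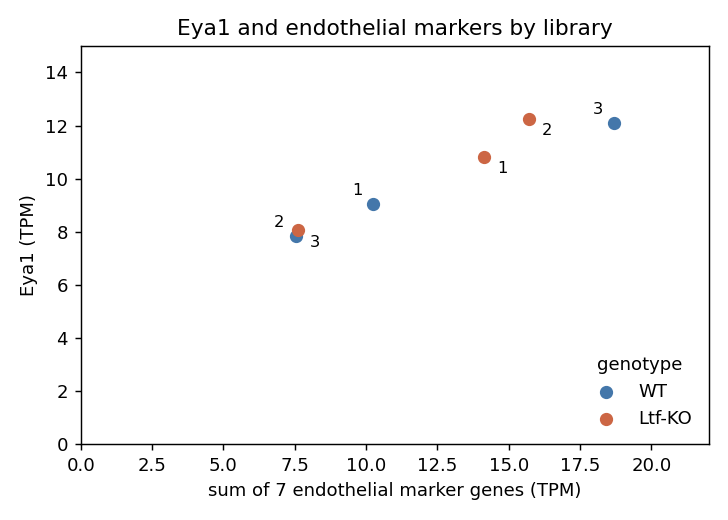
*Eya1* (TPM, vertical axis) against the summed TPM of 7 endothelial markers (horizontal axis), with 1 point per library, coloured by genotype and numbered by replicate. *Eya1* runs from 7.85 to 12.3 TPM along the sum, and each genotype has libraries at both ends.

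Genes with the profile most like a member were drawn from the 12956 genes tested. *Eya3* was most like *Uqcc2* (r = 0.993) and *Limk1* (r = 0.989), *Eya4* like *Brwd1* (0.994) and *Cacna2d1* (0.989), and *Eya1* like *Sat1* (0.992) and *Pmepa1* (0.987), all over 6 libraries. For *Six2* these were *Nhlrc4* (0.995) and *Mapk9* (0.992), for *Six4* *Pmaip1* (0.995) and *Scamp1* (0.992), and for *Six5* *Nup43* (0.988) and *Tbc1d23* (0.979). Between 17 genes (*Six5*) and 93 genes (*Eya1*) had an r above 0.95 with a member, so with 6 libraries no single likeness stands out.

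Transcripts of the proteins that these factors work with ranged from *Tle5* at the top to *Sobp* at the bottom, at 0.95 to 1.81 TPM. Of 17 listed binding partners, all 17 were tested, with a median log2 fold change of 0.020. At an adjusted p under 0.05 they numbered 0, beside 0% of all genes tested, and at an unadjusted one 0, beside 3.78%. *Tle5*, of the Groucho family of corepressors, was the highest at 173 to 196 TPM, followed by *H2ax*, the histone whose tyrosine Eya phosphatases act on, at 106 to 135 TPM. The corepressor *Ncor1* alone had separate genotypes, at a range of 63.5 to 69.3 TPM over the 6 libraries (log2 fold change 0.076, limma unadjusted p = 0.0885), beside the 8.46% of tested genes that had them. *Ncor1* and *Sobp* were named after their values were seen.

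Genes upstream and downstream of the homeobox and Eya complexes were not called either, but 0% of the 12956 genes tested had an adjusted p under 0.05 (limma). A count of 0 called was thus given for any list. At an unadjusted p under 0.05 these lists also held 0 genes, against 3.78% of all genes tested. Of the 6 Pax and myogenic regulatory factors 0 were called, with 3 higher and 3 lower in *Ltf*-KO and a median log2 fold change of -0.0025, and *Myod1* and *Myog* had log2 fold changes of 0.0037 and 0.11. Among 13 genes with known MEF3 or Dach sites 12 were tested and 0 called (median log2 fold change 0.0042). Of these, the glycolytic enzyme gene *Aldoa* was at 1582 to 1711 TPM. In the fast muscle program 8 of 11 genes were tested and 0 called, although all 8 estimates were above 0 (median log2 fold change 0.12). The 3 left untested averaged under 1 TPM, near the floor, and had lower means in *Ltf*-KO. These were *Myh2*, *Myh4* and *Pvalb*, at 0.90, 0.82 and 0.61 times WT, named after their values were seen. The sum of the program was 1420 to 2048 TPM in WT and 1454 to 2396 TPM in *Ltf*-KO libraries, and these ranges overlapped. In it, *Mylpf* was at 822 to 1396 TPM and *Myl1* at 182 to 343 TPM. Without *Ltf*-KO replicate 3, the library with the most *Myog*, the median log2 fold change of this list was -0.074.

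The nearest genes on either side of the members, in the order RefSeq gives them, numbered 14. Of these 8 were tested and 0 had an unadjusted p under 0.05, against 3.78% of all genes tested. *Msc*, next to *Eya1*, encodes musculin, a repressor of myogenic genes, and lay at 1.34 ± 0.308 TPM in WT and 0.937 ± 0.103 TPM in *Ltf*-KO libraries (SD, n = 3; limma unadjusted p = 0.157). *Mzt1*, next to *Dach1*, lay at 33.07 ± 1.13 and 35.4 ± 1.03 TPM (limma unadjusted p = 0.0827). These 2 had separate genotypes, as 8.46% of all genes tested did. The 6 neighbours left untested were under 1 TPM on average, among them *Six3* beside *Six2* and *Tcf21* beside *Eya4*, while *Rps12* on the other side of *Eya4*, a ribosomal protein gene, was at 4168 ± 34.1 TPM in WT and 4068 ± 112 TPM in *Ltf*-KO libraries.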

How the data were processed

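RNA was sequenced from SCs of 3 WT and 3 *Ltf*-KO libraries. The authors deposited TPM values with 2 decimals for 55416 genes. The study states that a sequencing company extracted and normalized the data by its own protocol, and the aligner and counting tool are not given in the sources used here. The submitters' processing notes name the build GRCm39. TPM keeps no read numbers, so depth is unknown, no counting interval can be given, and precision was judged from the spread between libraries.

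Genotypes and replicate numbers were taken from the sample labels. *Ltf*-KO was compared with WT by limma 3.58.1 in R 4.3.3 (lmFit and eBayes with a trend) on log2(TPM + 1), two-sided, on the 12956 genes that averaged 1 TPM or more, with Benjamini-Hochberg adjustment and a threshold of 0.05. Members under that mean were compared by an exact permutation test. The fit was tested on simulated data, in which only genes of a higher level than any member were changed. That test does not show how small a change could be seen in the members. The members and gene lists were chosen with earlier results of these data known. Other genes named were those with the highest mean TPM in each list (2 per list), up to 4 per list with the lowest unadjusted p under 0.05 (there were 0), the 2 genes most like each member by Pearson's r, and the nearest neighbours. Correlations covered 116 pairs of quantities. Promoter windows came from RefSeq on GRCm38.p6, another build than that of the table, and carry no measurement. No exon of a member shared bases with an exon of another gene in GENCODE M21. Covered by the naming rule, 2 further genes are not reported here. Alternatives were a pseudocount of 0.1, no filter, a minimum of 10 TPM on average, median-of-ratios scaling, quantile normalization, no trend, the replicate number as a block and each library left out in turn.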

Additional observations from a re-analysis of the deposited data

How the results depend on the processing

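In all of the 13 alternative settings 0 members had an unadjusted p under 0.05, and the smallest adjusted p of a member was 0.946 (limma). Of 76 refitted log2 fold changes 70 kept their direction, and the 6 that changed sign all came from leaving out a library. *Eya1* (-0.027 to 0.25 over these refits) was below 0 without WT replicate 2 or *Ltf*-KO replicate 2, *Eya3* (-0.065 to 0.061) above 0 without either of them, and *Eya4* (-0.048 to 0.15) below 0 when WT replicate 3 or *Ltf*-KO replicate 1 was dropped. The cause was not tested. In the same refits *Six2* took -0.20 to -0.022, *Six4* 0.038 to 0.15 and *Six5* -0.26 to -0.043, and the median of the fast muscle program -0.074 to 0.29. Unfiltered data let all 8 members be tested, with -0.033 for *Eya2* and -0.11 for *Dach1*, while a minimum mean of 10 TPM left 4. Over all genes, 0 passed an adjusted p of 0.05 and 490 an unadjusted one. Dropping a library gave 0 to 6 at the adjusted threshold: 6 for WT replicate 2, 5 for *Ltf*-KO replicate 1, 4 for *Ltf*-KO replicate 3, 2 for *Ltf*-KO replicate 2 and 1 for WT replicate 3. Unadjusted, the filter settings gave 890 with none and 281 at 10 TPM. With the replicate number as a block these counts were 0 and 380, and no call on a member or list changed. Same-numbered libraries did not deviate together over all genes tested (correlations of -0.041, -0.058 and -0.088). A link that touches few genes would not show in these values, and the labels give no more than a replicate number. Near 1 TPM, where *Six5*, *Eya2* and *Dach1* lie, a change is hardest to see, since the reads behind a value are unknown.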
